A study of Drosophila melanogaster with 3 samples.

Results

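The genes described here are 10 Drosophila melanogaster genes that encode proteins of promoters, polytene interbands and chromatin boundaries: Trl, M1BP, Dref, Clamp, Chro, pzg, JIL-1, Elba1, Elba2 and insv. The rule that defines them uses the roles of their products and no measured value, although it was written with earlier results of these data known. They are 10 of the 13945 protein-coding genes annotated on the long arms and chromosome 4. Each gene was searched for chromatin immunoprecipitation (ChIP-seq) peaks of D19A, a C2H2 zinc finger protein, whose summit lay inside the gene or within 2 kb of either end. The immunoprecipitations were made from whole embryos of pooled sex, aged 0 to 20 h, of a transgenic line that expresses D19A with a C-terminal eGFP. Per the labels an anti-GFP antibody was used, although the antibody field names D19A. The 3 biological replicates form 1 group, so there is no contrast between conditions, and signal from many cell types is mixed. The peak lists are 1 list of 30000 peaks per replicate, 1 list of 30000 peaks from the pooled replicates, and a list of 7769 peaks kept by the authors under the irreproducible discovery rate (IDR), a measure that favours peaks of like order in different replicates. Within each list, rank 1 is the peak with the highest signal value the authors deposited.

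As background, many of the products of these genes are found at the 5′ ends of active genes. GAGA factor, M1BP and DREF bind sequence motifs at promoters, and CLAMP binds GA repeats there and on the male X chromosome, where the dosage compensation complex acts. Chromator, Putzig (also called Z4) and the kinase JIL-1 occupy the open interbands of polytene chromosomes, and the BEN domain proteins Elba1, Elba2 and Insensitive bind boundary elements. D19A is not among these proteins. The values below are positions of D19A-eGFP at the genes that encode them, and say nothing of where those proteins bind.

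Stretches around the summits that the results turn on are shown here on the plus strand of dm6. The first 4 stretches surround the strongest intronic summits, at Trl and JIL-1, and the summit of replicate 2 upstream of M1BP. Capitals mark the longest unbroken run of A and T in each, or the first of those tied in length, as in the JIL-1 stretch of rank 412.

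Trl, IDR rank 153, chr3L:14759489-14759589: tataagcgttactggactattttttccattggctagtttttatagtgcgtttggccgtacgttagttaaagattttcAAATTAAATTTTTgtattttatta
JIL-1, IDR rank 412, chr3L:11084730-11084830: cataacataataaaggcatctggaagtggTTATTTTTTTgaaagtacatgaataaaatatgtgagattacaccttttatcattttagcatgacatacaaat
JIL-1, IDR rank 551, chr3L:11090134-11090234: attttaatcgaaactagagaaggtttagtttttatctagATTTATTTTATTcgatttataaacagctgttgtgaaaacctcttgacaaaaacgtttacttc
M1BP, replicate 2 rank 836, chr3R:8731858-8731958: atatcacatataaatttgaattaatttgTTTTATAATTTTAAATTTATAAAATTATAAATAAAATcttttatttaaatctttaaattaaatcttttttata

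The next 3 stretches come from promoter summits of Chro, Dref and Trl. Capitals mark every match to CGATA at Chro and Dref, and to GAGAG or its reverse complement CTCTC at Trl. The Chro stretch is 30 bases that hold its CGATA and the summit, and the Dref stretch ends at the start sites of Dref and RpL13. Bases were read from the RefSeq assembly whose arms have the lengths of dm6.

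Chro, IDR rank 114, chr3L:22878884-22878913: ttgcctgtCGATAgctttaaactaactgca
Dref, IDR rank 2968, chr2L:9967230-9967312: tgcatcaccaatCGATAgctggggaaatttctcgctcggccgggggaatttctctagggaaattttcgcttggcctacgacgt
Trl, IDR rank 7589, chr3L:14757367-14757467: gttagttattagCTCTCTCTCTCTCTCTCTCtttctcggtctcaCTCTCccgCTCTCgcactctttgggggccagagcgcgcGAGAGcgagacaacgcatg

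Trl, Dref, Chro, pzg and JIL-1 had an IDR summit in the gene or within 2 kb, which is 5 of 10 genes, beside 38.2% of all protein-coding genes. A promoter summit, within 250 bp of an annotated transcription start site (TSS) of the gene, was present at Trl, Dref, Chro and pzg, which is 4 of 10 genes, beside 15.3% of all. M1BP and Clamp had summits in the replicate and pooled lists only, and Elba1, Elba2 and insv had none in any list. The first count, with 10 genes, is near its background, and neither count was tested. The 10 genes had a median length of 3254 bp, against 2166 bp for all protein-coding genes. Elba1, Elba2, insv and M1BP, which had no IDR summit, were shorter than that, at 1410 to 1909 bp. Over all protein-coding genes, those with an IDR summit in this window had a median of 3393 bp against 1779 bp for genes without.

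With a window of 2 kb around the TSS, whatever the length of the gene, the count was again 5, beside 30.8%. In the pooled list it was 7, beside 55.5%, and 6 for promoter summits, beside 31.0%. A summit in all 5 lists was found at 4 genes, Trl, Chro, pzg and JIL-1, beside 36.6%. The IDR summits at these genes had the same positions and ranks in the pooled list, which was itself made from the replicates. The 5 lists are therefore not separate observations.

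Counted in each replicate's full list, 7, 7 and 6 of the 10 genes had a summit in the window, beside 57.2%, 59.8% and 56.7% of all genes. Promoter summits in those lists were found at 6, 7 and 5 genes, beside 30.6%, 35.8% and 28.4%. Among each replicate's 7769 strongest peaks the counts were 4, 6 and 4 genes, beside 37.2%, 41.2% and 35.7% of all genes. For promoter summits among those strongest peaks they were 3, 5 and 3 genes, beside 14.5%, 18.0% and 13.5%. Replicate 2 gave the highest count in both of these last cases, and its strongest peaks also held the largest promoter share, 28.7% against 25.1% or less in the others; whether that moved the count was not tested. Requiring IDR peaks to be matched among the strongest peaks of only the remaining replicates moved the first count to 3 without replicate 1, 3 without replicate 2 and 4 without replicate 3, beside 30.9%, 30.6% and 33.2% of all genes, whose share fell too. The promoter count became 2, 2 and 3, beside 11.1%, 10.7% and 12.4% of all genes. Dref and pzg were lost without replicate 1 or replicate 2, and pzg without replicate 3, while Trl, Chro and JIL-1 stayed in the first count each time. The reported counts carry no such matching. With all 3 replicates kept, 8 of the 14 IDR summits met it, at Trl, Chro and JIL-1 only. These losses therefore do not show the effect of leaving out a replicate alone.

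Chro, Trl and JIL-1 carried strong peaks. The strongest summit had IDR rank 114 at Chro, 153 at Trl and 412 at JIL-1, so 3 of 10 genes had a summit of rank 500 or better, beside 5.16% of all protein-coding genes. The count stayed 3 at rank 1000 or better, beside 9.19%. Trl, Dref, Chro and JIL-1, 4 of 10, had 2 or more IDR summits in the window, beside 17.0% of all. The weaker summits of Dref and Chro, ranks 4771 and 7693, lay 55 bp from the TSSs of CG5850 and Arf1. As good a rank as that of Chro was found in the window of 1.51% of all genes, as good a rank as that of Trl in 1.86%, and as good a rank as that of JIL-1 in 4.4%. The corresponding shares for Dref, at rank 2968, and pzg, at rank 5854, were 20.8% and 32.8%. None of these shares was matched for gene length, and Trl and JIL-1, 13121 and 14442 bp long, offer more positions than most genes.

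**Figure D1:**
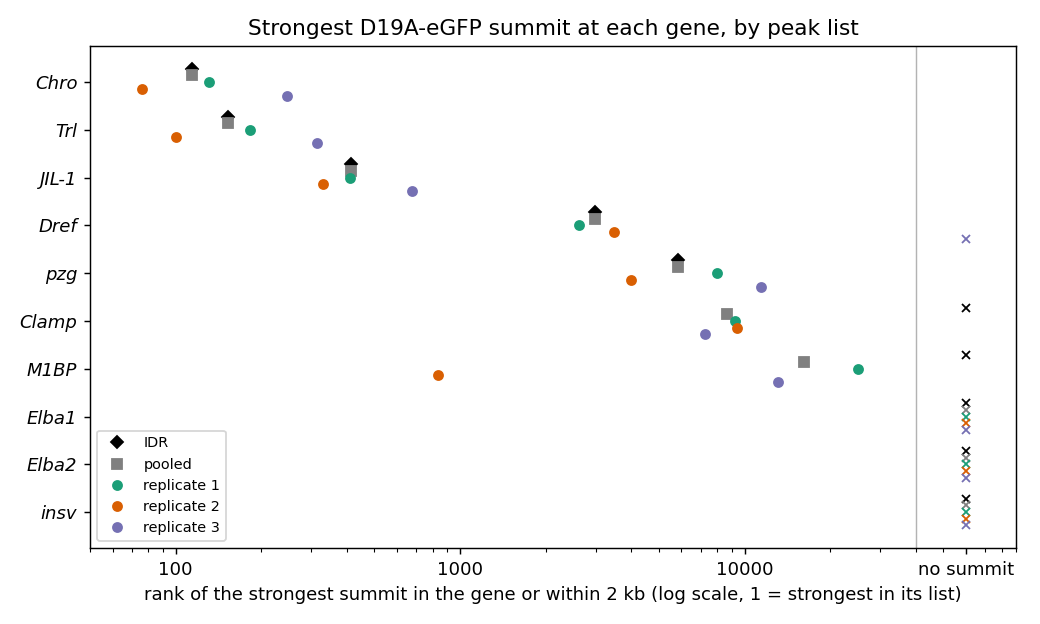
Rank of the strongest D19A-eGFP summit in or within 2 kb of each gene (log scale, rank 1 is the highest signal value), with 1 symbol per peak list and genes without a summit placed beyond the lists. Chro, Trl and JIL-1 stayed at rank 677 or better in all 5 lists, while M1BP ranged between 836 in replicate 2 and 25079 in replicate 1.

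Chro encodes Chromator, a chromodomain protein of interbands that also joins the spindle matrix. The gene lies on the minus strand at chr3L:22873702-22878984 (FBgn0044324) and starts 105 bp from the TSS of Ssl1, which encodes a subunit of the repair and transcription factor TFIIH and runs the other way. The strongest of all summits at the 10 genes was here, at position 22878910, 74 bp inside Chro in its 5′ UTR and at −179 bp from the Ssl1 TSS. Replicates 1, 2 and 3 gave it ranks 131, 76 and 247. The 3 replicate summits lay within 14 bp of each other, so the position was nearly the same in every library, while the rank was lowest in replicate 3. The peak is shared by the 5′ ends of both genes, and a ChIP-seq position cannot assign it to either.

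The other IDR summit in the Chro window, rank 7693, was weak and close to the edge of the window, 1705 bp beyond the 3′ end. It fell in the 5′ UTR of Arf1, a small GTPase gene of vesicle traffic, 55 bp from its TSS, and in an exon of the antisense RNA asRNA:CR45969. Its replicate ranks of 8229, 7518 and 7826 were close to each other. Outside the window, 4840 bp upstream of Chro, a summit of rank 704 stood in an intron of slif, an amino acid transporter gene, with ranks 619, 881 and 590.

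Trl encodes GAGA factor, a BTB domain protein that binds GAGAG and opens promoter chromatin. It lies on the minus strand at chr3L:14747929-14761049 (FBgn0013263), with 4 annotated TSSs, and overlaps CG42507 and Tsen34. It held 7 IDR summits, and 1.18% of all genes had as many, though its length of 13121 bp gives it more positions than most genes. The strongest, rank 153 at position 14759539, lay in an intron 1510 bp downstream of the most 5′ TSS. Its ranks were 182, 100 and 315 in replicates 1, 2 and 3, and the replicate summits lay within 29 bp. All 3 libraries had it among their 315 strongest peaks.

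The other Trl summits were weaker and mostly grouped around the internal TSSs, of which CG42507 shares 1, so these cannot be assigned to either gene. An intronic summit of rank 1304, 1128 bp downstream of the nearest TSS, had ranks 1565, 1052 and 2112. A 5′ UTR summit of rank 2499, 120 bp downstream of a TSS, had ranks 2306, 2201 and 3990. The summit at −81 bp from the same TSS, rank 7589, had nearest replicate summits of rank 7710, 8526 and 18231.

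At −225 bp from the TSS that Trl shares with CG42507, a summit of rank 1675 was overlapped by peaks of rank 1432, 1712 and 1987. Replicate 3 had no summit within 100 bp of it. Its peak of rank 1987 had its summit at −382 bp, outside the 250 bp promoter window. The IDR summit of rank 1675 shared an interval with a summit of rank 4710 at −424 bp, also outside that window. The replicate summits nearest to the latter had ranks 3418, 9310 and 1987. Replicate 3 therefore had a single nearest summit for both. The summit of rank 7253, 593 bp downstream of the most 5′ TSS, had ranks 9425 and 4556 in replicates 1 and 2 and no overlapping peak in replicate 3. The most 5′ TSS, 979 bp from that of Mgat4a, had no promoter summit in the IDR list.

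JIL-1 encodes the tandem kinase that phosphorylates histone H3 at serine 10 in interbands. The gene lies on the minus strand at chr3L:11078752-11093193 (FBgn0020412) and is 14442 bp long, the longest of the 10. Both of its IDR summits were intronic and far from any TSS, 7076 bp downstream of the nearest at rank 412 and 1672 bp at rank 551. The first had ranks 411, 330 and 677 in the replicates, with summits within 12 bp, and the second 623, 458 and 760, within 26 bp. Each was strong in all 3 libraries and lowest in replicate 3.

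The JIL-1 promoter, in contrast, carried a weak peak only. The pooled summit at −19 bp had rank 8604 and a −log10 q-value of 3.39, below the highest value of 4.2 in that list, and was not in the IDR list. Its rank in the replicates was 21806, 8620 and 8220, so replicate 1 stood far below the other libraries.

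**Figure D2:**
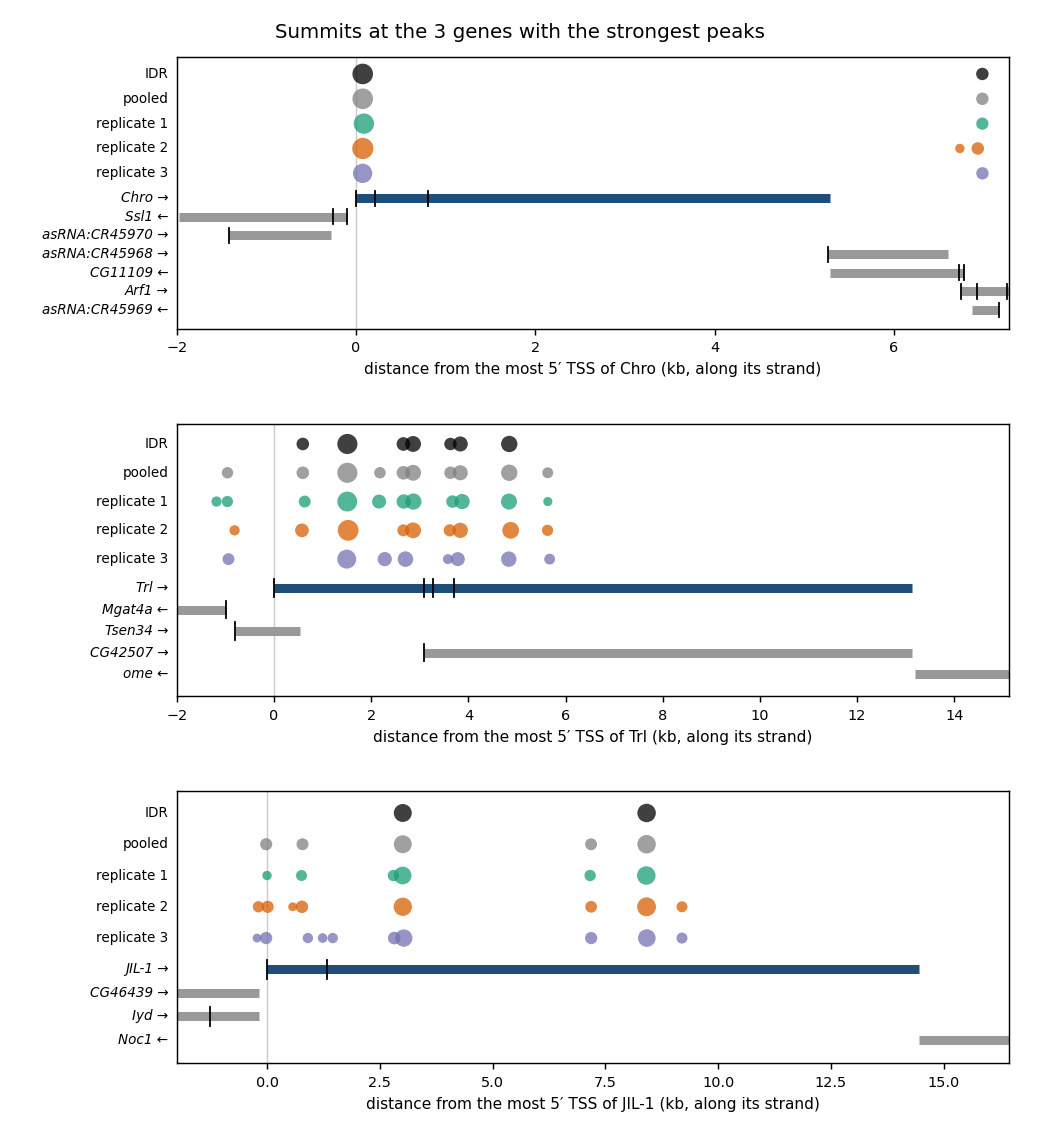
Maps of Chro, Trl and JIL-1 with the summits of each peak list along the distance from the most 5′ TSS in kb, where larger circles have better ranks, ticks are TSSs and arrows give the direction of transcription. The strong Chro summit sits at the shared 5′ end with Ssl1, those of JIL-1, ranks 412 and 551, lie inside introns, and those of Trl cluster in its 5′ part.

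Dref and pzg had promoter peaks of middle and low rank, both between head-to-head genes. Dref encodes the DNA replication-related element binding factor, which acts at promoters of growth and replication genes. It lies on the minus strand at chr2L:9964147-9967229 (FBgn0015664), and its TSS is 84 bp from that of RpL13, a ribosomal protein gene. The IDR summit of rank 2968 stood between both, 45 bp upstream of Dref and 39 bp upstream of RpL13. It had rank 2623 in replicate 1 and 3470 in replicate 2. Replicate 3 had no peak there, although its list is of the same length, and its nearest summit to Dref was 4908 bp away.

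A further IDR summit of rank 4771, 253 bp beyond the 3′ end of Dref, fell in the 5′ UTR of CG5850, 55 bp from its TSS. The overlapping peaks had ranks 5131 and 4871 in replicates 1 and 2, and again replicate 3 had none. Only replicate 2 had a summit within 100 bp of this position. The replicate 1 summit lay on the other side of the CG5850 TSS, 93 bp upstream of it. Both Dref peaks thus rest on replicates 1 and 2, and the position of the second summit on replicate 2.

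The gene pzg encodes Putzig, the zinc finger protein Z4, a partner of Chromator in interbands. It lies on the plus strand at chr3L:21286099-21290310 (FBgn0259785), and its TSS is 137 bp from that of CG12974 on the other strand. Its IDR summit of rank 5854 stood 136 bp upstream of pzg and 1 bp from the TSS of CG12974. The overlapping peaks had ranks 8024, 3992 and 14214 in replicates 1, 2 and 3, highest in replicate 2 and lowest in replicate 3. Replicate 3 had no summit within 100 bp of the IDR summit. Its peak of rank 14214 had its summit 24 bp upstream of pzg and 113 bp upstream of CG12974. A pooled summit of rank 8677, inside CG12974 and 1509 bp upstream of pzg, was not in the IDR list.

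**Figure D3:**
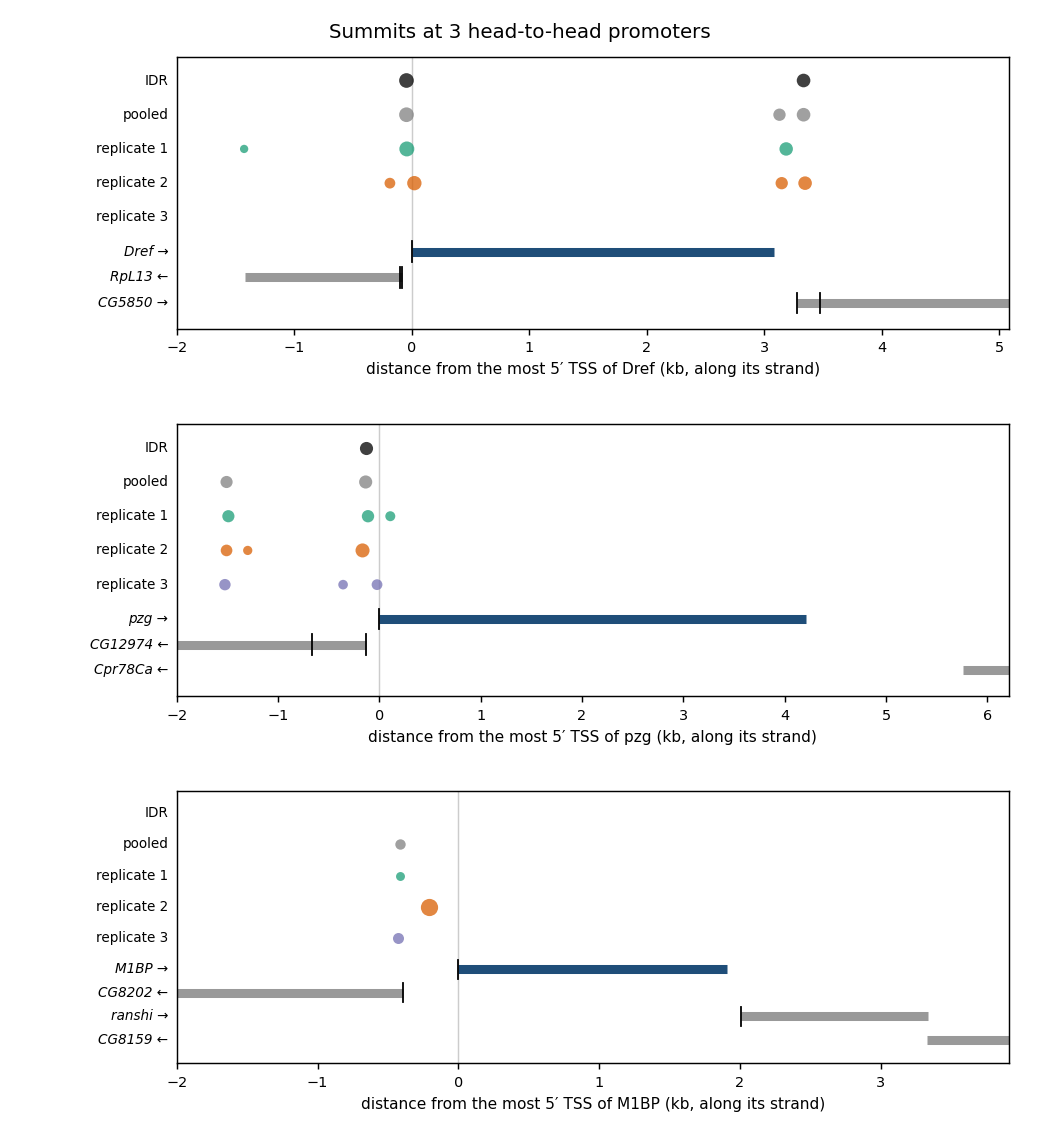
Maps of Dref, pzg and M1BP with their divergent neighbours and the summits of each peak list along the distance from its start in kb, where larger circles have better ranks, ticks are TSSs and arrows give the direction of transcription. The Dref panel has no replicate 3 summit, and the M1BP panel has its replicate 2 summit apart from those of the other lists.

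Of the 14 IDR summits at these genes, all were overlapped by a peak in replicate 1 and in replicate 2, and 3 were not in replicate 3. These are both Dref summits and the Trl summit of rank 7253. Over all IDR peaks the shares not overlapped were 0.85% in replicate 1, 0.669% in replicate 2 and 2.06% in replicate 3. For the IDR peaks with a promoter summit the share in replicate 3 was 3.87%, against 1.43% for the other IDR peaks. Replicate 3 was therefore the library with the most unmatched peaks both here and in the whole list.

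Clamp encodes the chromatin-linked adaptor for the MSL proteins of dosage compensation. It lies on the minus strand at chr2L:22165720-22169143 (FBgn0032979), with lncRNA:CR44809 starting 525 bp away on the other strand. It had no IDR summit in the window, but a weak promoter summit in all 4 other lists. The pooled summit, 2 bp downstream of the TSS, had rank 8654 and a −log10 q-value of 3.39. Replicates 1, 2 and 3 gave best promoter ranks of 9221, 9391 and 7252, none of them near those of Chro or Trl.

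The summit nearest to the Clamp window in the IDR list, rank 1575, lay 4032 bp upstream. It had ranks 1362, 2074 and 1328 and fell in an annotated transposable element, invader1. The nearest TSS there was that of CG3635, 2240 bp away. An A or T share of 49.5% put it below the median of 69.3% for IDR summits.

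M1BP encodes the zinc finger protein that binds Motif 1 at promoters with paused polymerase. It lies on the minus strand at chr3R:8729790-8731698 (FBgn0037621), 393 bp from the TSS of CG8202 on the other strand. Its replicates disagreed. In replicate 2 a summit of rank 836 stood 210 bp upstream of M1BP and 183 bp upstream of CG8202. In replicate 1 the rank was 25079, in replicate 3 it was 13085, and in the pooled list 16159, with summits 204, 218 and 207 bp away from that of replicate 2, inside the 5′ UTR of CG8202. The pooled interval was 472 bp wide, against the usual 444 bp, with its summit 21 bp from its end, and the replicate 1 interval was 419 bp wide, against 436 bp, with its summit on its last base. Both intervals span the summit of replicate 2, so these low ranks may not describe the same position as rank 836.

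Among the 1000 strongest peaks of replicate 2, 0.4% had neither an overlapping replicate 1 peak nor an overlapping replicate 3 peak of rank 10000 or better, and the M1BP peak is 1 of those 4. Its stretch was 93.1% A or T, with a run of 37 bases without G or C. A run as long was found in 0.425% of the IDR summit windows. Mapping quality and read depth are not among the files, so their part in this difference was not tested.

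Elba1, Elba2 and insv had no summit within 2 kb in any of the 5 lists, which made 3 of 10 genes, beside 33.8% of all protein-coding genes. Elba1 (chr2L:4683052-4684461, minus strand, FBgn0000227) and Elba2 (chr2L:2577687-2579179, plus strand, FBgn0031435) encode DNA-binding subunits of the ELBA complex, which acts at boundaries of the early embryo. The gene insv (chr2L:2575280-2576997, minus strand, FBgn0031434) encodes Insensitive, a corepressor in Notch signalling in the nervous system. Elba2 and insv start 690 bp from each other, so they share their surroundings and are not separate observations.

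What set these 3 genes apart was the distance to the nearest peak. The nearest pooled summit was 55581 bp from Elba1, 57609 bp from Elba2 and 59791 bp from insv, and 1.91%, 1.73% and 1.58% of all protein-coding genes were as far from a pooled summit. The gap between pooled summits that holds Elba1 was 166829 bp wide with 13 protein-coding genes inside, and that of Elba2 and insv was 141844 bp with 14, while the median gap was 1228 bp. Of 29994 gaps, 42 were as wide as the first and 54 as wide as the second. In replicates 1, 2 and 3 the Elba1 gap was 166062, 166837 and 165173 bp and the Elba2 gap 137557, 142005 and 141838 bp, so both gaps were present in every library. Gaps in coverage or in the control were not measured.

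**Figure D4:**
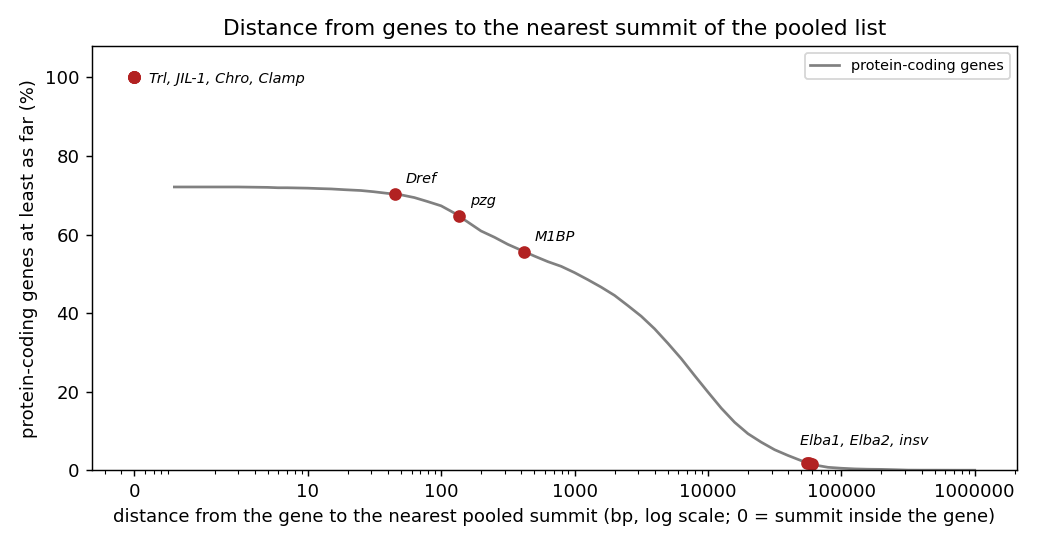
Share of protein-coding genes (%) whose nearest pooled summit is at least as far as the distance on the x axis (bp, log scale, 0 for a summit inside the gene), with the 10 genes as points. Elba1, Elba2 and insv sit at 55581 to 59791 bp in the tail, and the other genes lie within 417 bp.

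The base composition around the summits varied among these genes. From 50 bp before to 50 bp after each summit, A or T made up a median of 65.8% over the 14 IDR summits at these genes, against 69.3% over all IDR summits and 57.4% over windows 200 bp to either side of them. The 6 summits further than 250 bp from every TSS, at Trl and JIL-1, had 57.4% to 73.3%, with a median of 72.3%. The 8 within 250 bp of a TSS of any gene had 43.6% to 79.2%, with a median of 52.5%, although over all IDR summits the medians were close, 68.3% within 250 bp of a TSS and 69.3% further away. The low median thus rests on a few windows.

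Of those 8, 4 had 50% A or T or less, where 9.86% of all IDR promoter summits did. They were Trl rank 7589 with 43.6%, pzg with 47.5%, Trl rank 1675 with 48.5% and Dref rank 2968 with 49.5%. Chro rank 114, at 68.3%, and the CG5850 end of the Dref window, at 79.2%, did not share this. The strong summits, Chro, Trl rank 153 and both of JIL-1, had 68.3%, 72.3%, 73.3% and 73.3%. Summits in 1 gene are close together, so these windows are not independent of each other, and the composition was not tested against rank.

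**Figure D5:**
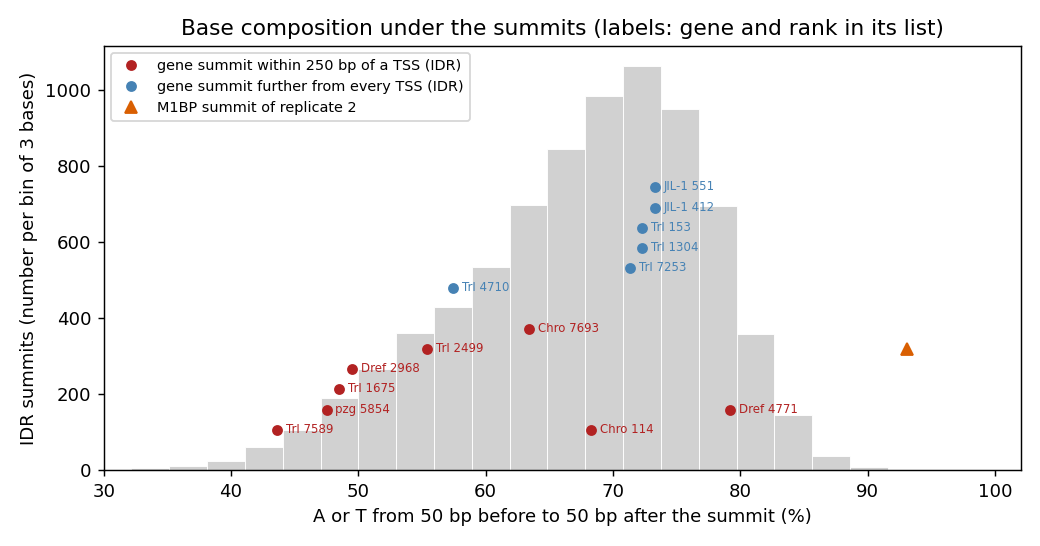
A or T share (%) from 50 bp before to 50 bp after each of the 14 IDR summits at the genes, coloured by position and labelled with gene and rank, over the histogram of all 7769 IDR summits (number per bin of 3 bases); the height of the points carries no value. The intronic summits of JIL-1 and the strongest of Trl sit at 72.3% to 73.3%, and 4 promoter summits sit at 43.6% to 49.5%, with the replicate 2 summit of M1BP at 93.1%.

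Motifs of the encoded proteins were then looked up in the same windows on both strands. The 7 strings were GAGAG (GAGA factor and CLAMP), TATCGATA (the DREF element), CGATA (its short form, contained in the full element), GGTCACAC (the core of Motif 1), CCAATTGG (Insensitive), CCAATAAG (ELBA) and the A/T run AAATATAT. CGATA is also a short element of BEAF-32, which is not among the encoded proteins, so a match does not single out DREF. CGATA was present at 4 of the 14 summits, Chro rank 114, Dref rank 2968, pzg rank 5854 and Trl rank 4710, against 12.7% of all IDR windows and 12.1% of the flanking windows. Of the 8 summits within 250 bp of a TSS, 3 held it, against 16.8% of all such IDR windows. Of the 6 further away, 1 did, against 11.2%. GAGAG was present at 2, Trl ranks 7589 and 1675, against 9.16% of all IDR windows and 16.4% of the flanking windows. At Trl rank 7589 it recurs as the CTCTC tract printed above. The other 5 strings were in none of the 14 windows, and in 0.695% (TATCGATA), 0.515% (GGTCACAC), 0.18% (CCAATTGG), 0.296% (CCAATAAG) and 7.62% (AAATATAT) of all IDR windows. The weak pooled summit at the Clamp TSS held GAGAG and GGTCACAC.

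A list of 22 partners and relatives of these genes gave counts close to the background. An IDR summit in the gene or within 2 kb was present at 9 of 22, or 40.9%, beside 38.2% of all genes, and a promoter summit at 2 of 22, or 9.09%, beside 15.3%. The promoter summits were at Nelf-E, a subunit of the pausing factor NELF (rank 2182, 99 bp upstream and 28 bp from the TSS of RpL14), and at cg, which encodes the zinc finger protein Combgap (rank 7346, 25 bp downstream of its TSS). With IDR peaks matched among the strongest peaks of the remaining replicates, neither was kept without replicate 2 or without replicate 3. The count of 2 fell to 0 in each case, beside 10.7% and 12.4% of all genes. Without replicate 1 it fell to 1, beside 11.1% of all genes, whose share thus fell each time.

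The strongest summit at a listed gene was closer to a neighbour's start. It was that of Caf1-55, a histone-binding chaperone gene, with rank 104, and lay 1964 bp beyond its 3′ end and 120 bp from the TSS of Art3. The gene psq, which encodes the GAGA-binding protein Pipsqueak, had 10 summits, the best of rank 896 in an intron, over 59393 bp. Of the dosage compensation genes, mof had a summit of rank 3389, 324 bp beyond its 3′ end, and msl-1, msl-2, msl-3 and mle had none in the window. Of the genes of NURF subunits, Caf1-55 had the summit above, and E(bx), Iswi and Nurf-38 had none.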

How the data were processed

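ChIP-seq of D19A-eGFP was deposited as 5 peak lists in dm6 coordinates: 1 per replicate, 1 pooled and 1 IDR list. Per the record files deposited with the samples, the replicates share 1 control file. Aligner, peak caller and IDR cutoff were not given in the sources used here. The deposited signal value of a peak, whose normalization is not stated, served only for ranks inside its own list. A −log10 q-value and a summit offset were also deposited by the authors. The lists hold no read counts, so depth is unknown. Gene models are those of Ensembl release 115.

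The genes and the list of related genes were chosen with earlier results of these data known. Named besides them are genes whose TSS is nearest to an IDR summit, genes overlapping it, adjacent genes and related genes with a promoter summit; Caf1-55, mof, psq, slif and the related genes without a summit were named after their values were seen. Counts stand beside the same count over all protein-coding genes, with no test. Overlap meant at least 1 bp. Alternatives changed the windows, peak list, threshold, replicates and matching. The counting was tested on simulated data. Python 3.11.15, pandas 2.3.3, NumPy 2.4.6 and Matplotlib 3.10.9 were used.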

Additional observations from a re-analysis of the deposited data

How the results depend on the processing

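No paired analysis was possible because the 3 replicates form 1 group. Each replicate was left out in turn by keeping IDR peaks matched among the strongest peaks of the remaining replicates. The count of genes with an IDR summit in the gene or within 2 kb then ranged from 3 to 4, where 5 is the reported value. The count with a promoter summit ranged from 2 to 3, where 4 is reported. For the related genes these ranges were 6 to 8 (9 reported) and 0 to 1 (2 reported), in an alternative added after seeing the data. Leaving out a replicate in this way only removes IDR peaks, so no count could rise. The reported counts carry no such matching, so these ranges do not show the effect of a missing replicate alone. The shares of all genes fell too, from 38.2% to between 30.6% and 33.2%, and from 15.3% to between 10.7% and 12.4% for promoter summits. The first count was 3 (Trl, Chro, JIL-1) with summits inside the gene only (15.4% of all genes), with the 1942 strongest IDR peaks (15.3%) and with a summit of every replicate within 100 bp (34.2%). The promoter count was 2 (Trl, Chro) under the last 2 settings (4.43% and 13.0%). Windows of 1 and 5 kb and the 3884 strongest peaks gave 5, 6 and 4 genes (31.9%, 52.0% and 24.9%). Promoter windows of 100 and 500 bp, the most 5′ TSS and the 3884 strongest peaks gave 3, 4, 3 and 3 (5.46%, 20.1%, 13.2% and 7.82%). The median A or T share at the 14 summits was 62.7% with 25 bp to either side and 61.4% with 100 bp, against 65.8% with 50 bp. Over all IDR summits it was 68.6% with 25 bp, 66.7% with 100 bp and 69.3% with 50 bp. The rank of the strongest summit departed most from its IDR rank in replicate 3, for Chro (247), Trl (315), JIL-1 (677) and pzg (14214). The pzg rank is that of an overlapping peak without a summit within 100 bp. Dref had no peak in replicate 3, so no rank could be compared there. Depth is unknown, so a gene without a peak may hold signal under the limit of a list.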
